A study of Mus musculus and Homo sapiens with 90 samples.

Results

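HepG2 cells, an established human liver cancer line, were compared after 48 h with metabolites of a microbial community that had been grown with the cyclic peptide WlWkHsHK, and after 48 h as the medium control. This comparison takes 4 RNA-seq libraries of the 90 samples in the series, 2 with these metabolites (called diast here, as in the sample titles) and 2 of medium, chosen by their column names. All cells carried the genotype p53-WT, and metabolites were added at 1 part to 32 parts of culture medium. The other 4 RNA-seq libraries entered the same model: 2 received metabolites of a community given only solvent (the solvent control) and 2 received metabolites of a community given the antimicrobial cyclic peptide wLwKhShK. The column headers of the medium libraries read GAM, which the labels do not explain, and whether a medium was added to those cells at the same dilution is not given. HepG2 is 1 line of tumour origin, and nothing in the labels ties replicates to separate cultures, so p-values measure only the spread between these samples. Against medium, diast differs both by the community's metabolites and by the community's growth with WlWkHsHK. The comparisons with the other 2 metabolite groups have community metabolites on both sides. In them, a change in the metabolites cannot be told apart from carried-over peptide or from other differences between the preparations.

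Gut microbes release short-chain fatty acids, modified bile acids, indoles and many other small molecules. In the body these reach the liver first, through the portal vein, and hepatocytes answer with changes in gene expression. Cyclic peptides that alternate mirror-image residues can stack and disturb bacterial membranes, and a diastereomer holds the same residues with another pattern of handedness. WlWkHsHK and wLwKhShK are written with the same 8 residues, with the letter case exchanged at 7 of them; lower case commonly marks the mirror-image (D) form, which the labels do not spell out. The cells met the community's products, and whether any peptide was carried over with them is not stated.

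The rows carry Ensembl gene IDs, 58230 in all, of which 15023 passed the expression filter and were tested. The tables give no gene symbol beside an ID, so genes are described by level, size of change and order of the groups, and at most 2 that rose and 2 that fell are printed by ID for each comparison. For the same reason the liver identity of the cells was not checked against marker genes, and markers of other cell types and of RNA quality were not analysed here. Expected counts per library ran from 17019363 to 25594586, with 19665020 and 17590911 in the diast libraries and 20644338 and 18047134 in the medium libraries. Replicates of each of the 4 groups differed by more than counting error, and their chi-square divided by its degrees of freedom was 3.74 for diast and 11.4 for medium. The root mean square log2 difference over the tested genes was 0.30 between the diast replicates and 0.33 between the medium replicates. It was 0.71 to 0.72 between a diast and a medium library.

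About as many genes were higher with diast than in medium as were lower, but the larger changes were chiefly rises. Of the 15023 genes, 7915 changed (52.7%): 4239 rose (28.2%) and 3676 fell (24.5%) by edgeR's quasi-likelihood test at an adjusted p under 0.05. Past a 2-fold threshold 1546 genes rose (10.3%) and 579 fell (3.85%). The median log2 difference of all tested genes was 0.05. The 2 diast libraries lay wholly above the 2 medium libraries for 6102 genes (40.6%) and wholly below for 5205 (34.6%), and among the called genes this held for 4236 of the 4239 rises and 3674 of the 3676 falls. The median called gene changed by 0.61 on the log2 scale, and the smallest called difference was 0.13. The median standard error (SE) over all tested genes was 0.12. It depended on level, at 0.69 in the lowest of the 5 level classes described below and 0.07 in the highest. Levels are given below in CPM, the count scaled to the library's total after normalization.

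**Figure D1:**
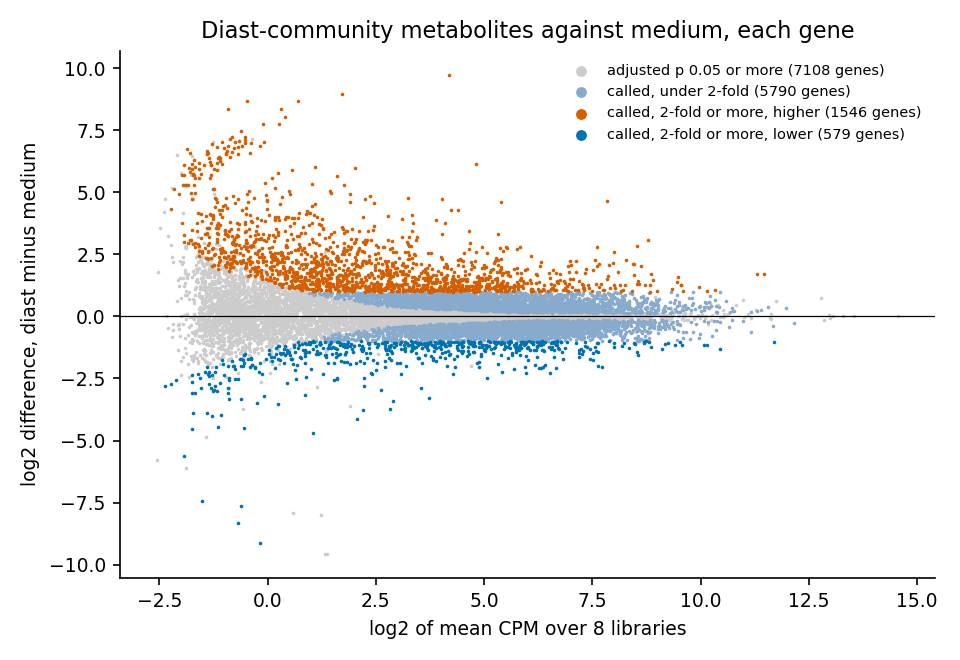
Each point is 1 of the 15023 tested genes, with the log2 of its mean CPM over the 8 libraries on the x axis and the fitted log2 difference, diast minus medium, on the y axis. The 1546 genes higher at 2-fold or more spread farther from 0 than the 579 lower ones, mostly at the low end of the x axis.

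The imbalance grew with the size of the change. Between 2- and 4-fold, 872 genes rose and 479 fell. Between 4- and 8-fold, 366 rose and 72 fell, and at 8-fold or more 308 rose and 28 fell. Most of the largest rises began from almost nothing: of the 308 genes, 82 had 0 counts in both medium libraries, 113 had 1 to 3 counts there and 113 had more. A fitted fold against 0 counts depends on the model's prior count and gives no size, so only membership in this class is stated for those genes. Few became abundant, since 43 of the 308 reached a mean of 5 CPM with diast. A further 26 genes had a fitted difference of at least 8-fold that was not called, and in 11 of these a single library held over 50% of the summed CPM.

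Level and direction of change went together. Genes were cut into 5 level classes of equal size by mean CPM over all 8 libraries. That mean includes the diast and medium values themselves. The expression filter used all 4 groups, so a gene barely detected in medium could be tested through its level in a metabolite group alone. The shares by class are therefore a description. Without the filter, 1574 genes rose and 597 fell at 2-fold or more over all levels. In the lowest class (0.17 to 1.91 CPM), 17.8% rose and 4.19% fell, and every one of these calls was of at least 2-fold; smaller changes were not detectable at that depth. In the next class (up to 11.3 CPM), 31.8% rose and 14.3% fell. The middle class (up to 31.3 CPM) was even, with 29.7% up and 29.2% down. Falls outnumbered rises above that, with 28.8% up and 36.4% down in the class up to 74.2 CPM and 33.0% up and 38.3% down in the top class. These falls were small: 3.09% of genes in the top class fell by at least 2-fold, against 3.69% that rose so far. The balance of rises and falls also moved with the scaling. Over all tested genes, upper-quartile factors gave 4747 higher and 3317 lower, and DESeq2 size factors gave 4001 and 3951. The level classes were not recounted under those scalings.

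**Figure D2:**
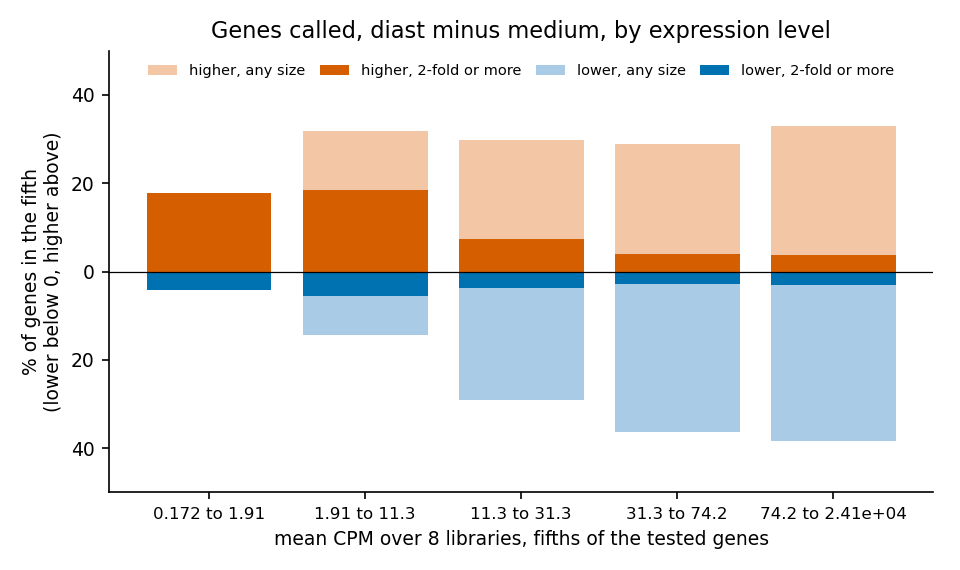
Bars give the percentage of genes in each class of mean CPM called higher (above 0) or lower (below 0) with diast than in medium, with changes of at least 2-fold in the darker shade. The rising share at 2-fold or more drops from 17.8% and 18.5% in the 2 lowest classes to 3.69% in the top class.

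More genes were detected with diast than in medium. The diast libraries had 13054 and 13062 genes at 1 CPM or more, and the medium libraries 12520 and 12700. The groups did not overlap, although an exact permutation test of 2 against 2 libraries cannot go below a two-sided p of 0.333. In both diast libraries 424 genes reached 1 CPM that both medium libraries kept below it, and 342 of the 424 were called as rises; their median mean level was 0.51 CPM in medium and 1.80 CPM with diast. The reverse held for 120 genes, of which 58 were called as falls. By counts alone, 28 genes had 0 counts in both medium libraries and at least 10 in each diast library. The same count was 79 for the solvent control and 5 for wLwKhShK. Against the same medium libraries, 583 genes crossed 1 CPM upward with the solvent control and 247 with wLwKhShK, so diast stood between them on both counts. These 3 groups share the medium libraries, and the differences between their counts were not tested.

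The rising genes took up a larger part of the RNA. The 1546 genes called higher at 2-fold or more held 2.01% and 2.05% of the expected counts in the medium libraries and 5.64% and 5.66% in the diast libraries. The 579 genes called lower held 5.15% and 5.05% in medium and 2.17% and 2.17% with diast. These genes were chosen for their difference between these libraries, so the shares describe its weight and are not a test of it. The median falling gene was more abundant at the start than the median rising one, at 19.2 and 18.7 CPM in the medium libraries against 1.27 and 1.34 CPM. The genes were not chosen on a difference of the other metabolite groups from medium. Those groups did enter the expression filter and the shared estimate of spread. The levels of the genes there are set beside these. The rising genes held 5.08% and 5.09% with the solvent control and 5.49% and 5.43% with wLwKhShK. The falling genes held 2.94% and 2.99% with the solvent control, and 2.29% and 2.35% with wLwKhShK. The medium libraries did enter the choice, so part of the distance of these groups from medium may come from it.

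**Figure D3:**
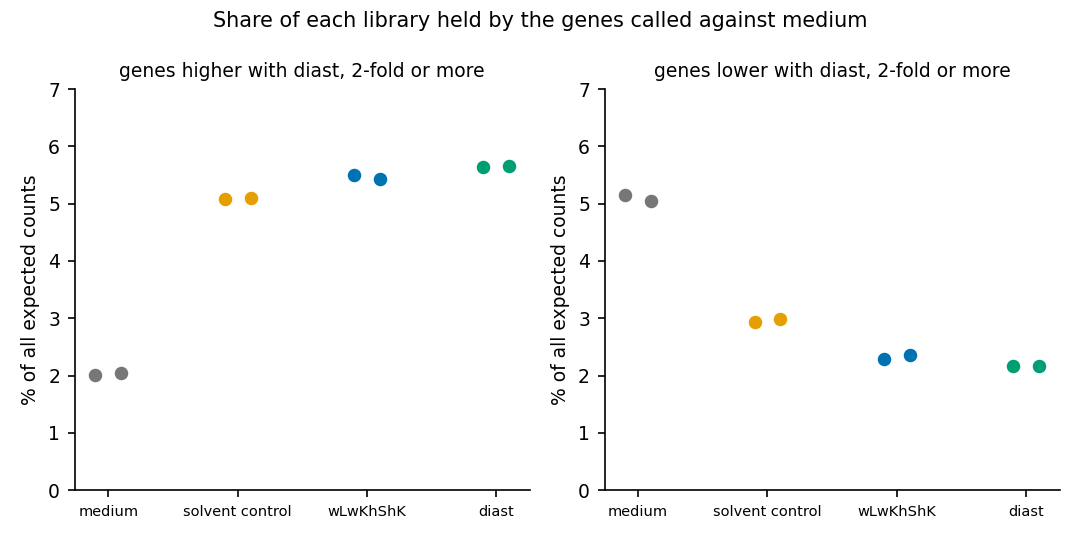
Points give, for each of the 8 libraries, the percentage of all expected counts held by the 1546 genes (left) and the 579 genes (right) called at least 2-fold higher or lower with diast than in medium. On the left both medium points lie near 2% and every metabolite library lies above 5%. On the right both medium points lie above 5% and every metabolite library lies below 3%. The genes were chosen on the difference between the medium and diast libraries, in a fit that held all 8 libraries.

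The median log2 difference from medium of the 1546 rising genes was 1.80 with diast, by which they were chosen, 1.91 with the solvent control and 1.39 with wLwKhShK. The corresponding medians of the 579 falling genes were -1.29, -0.95 and -1.21. Over all tested genes the 3 medians were 0.05, 0.00 and 0.03. All 3 comparisons use the same medium libraries, so their values are not independent.

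Among called genes with at least 5 CPM in the higher group and no overlap between diast and medium, the largest rise was that of ENSG00000182459. It stood at 0.05 and 0 CPM in the medium libraries, that is, 1 count in both together, and at 25.8 and 29.5 CPM with diast. In the solvent control it read 39.6 and 44.5 CPM, and with wLwKhShK 4.10 and 2.57 CPM. The diast libraries were thus far above medium and below the solvent control. The ratio of diast to medium was 1061 with a 95% counting interval of 190.0 to 41944, which covers counting error only (edgeR adjusted p 3.63e-14). The difference from the solvent control was -0.60 ± 0.13 on the log2 scale (SE, edgeR adjusted p 0.00273), and that from wLwKhShK was 3.03 ± 0.17 (SE, edgeR adjusted p 3.52e-10).

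The next rise was that of ENSG00000197471, at 0.44 and 0.61 CPM in medium and 35.4 and 39.5 CPM with diast. Its levels were 62.5 and 64.4 CPM in the solvent control and 12.1 and 10.8 CPM with wLwKhShK. No groups overlapped, and the order of the 4 groups was that of ENSG00000182459. The log2 difference from medium was 6.15 ± 0.18 (SE, edgeR adjusted p 1.29e-15).

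The largest fall by the same rule was that of ENSG00000124882. It read 9.50 and 4.85 CPM in medium and 0.36 and 0.17 CPM with diast, where the libraries held 7 and 3 counts. The medium replicates were far apart from each other, and both lay above the diast libraries, as the rule for printing required. The log2 difference was -4.71 ± 0.54 (SE, edgeR adjusted p 3e-07). Levels in the other metabolite groups were 0.87 and 0.76 CPM (solvent control) and 0.12 and 0 CPM (wLwKhShK), and the edgeR adjusted p of the diast difference was 0.087 from the solvent control and 0.157 from wLwKhShK. ENSG00000165272 fell from 13.4 and 11.7 CPM in medium to 0.77 and 0.63 CPM with diast, a log2 difference of -4.14 ± 0.28 (SE, edgeR adjusted p 1.73e-10). It was at 1.35 and 1.63 CPM in the solvent control and at 1.81 and 2.29 CPM with wLwKhShK, so diast had the lowest level of the 4 groups. For this gene diast lay below the solvent control by -1.07 ± 0.35 (SE, edgeR adjusted p 0.0315) and below wLwKhShK by -1.53 ± 0.32 (SE, edgeR adjusted p 0.00254).

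Diast against the solvent control compares metabolites of communities grown with and without WlWkHsHK. It is also the test of the difference between their changes from medium. Any peptide carried over to the cells would count in it. Fewer genes differed here, 3172 in all (21.1%): 1566 were higher (10.4%) and 1606 lower (10.7%), and at 2-fold or more 44 were higher (0.293%) and 217 lower (1.44%). The genes printed have the largest differences only among genes that were also called at 2-fold from medium and had a mean of at least 5 CPM in the highest of the 4 groups. Larger fitted differences lie outside that limit, since 11 genes were called higher and 18 lower than the solvent control at 8-fold or more. Leaving out any 1 of the 4 libraries compared, with its lone partner assumed to vary like the other groups, left 827 to 890 higher and 885 to 1080 lower, and 111 to 135 lower at 2-fold or more. Scaling by library size alone turned the even split to 1196 higher and 1864 lower.

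Within that limit ENSG00000109971 had the largest rise over the solvent control. It read 337.0 and 314.3 CPM in medium, 269.3 and 263.5 CPM in the solvent control and 780.2 and 791.8 CPM with diast. With wLwKhShK it reached 1681 and 1546 CPM. The solvent control lay below medium and diast above it, with no overlap between any groups. Diast exceeded the solvent control by 1.56 ± 0.06 on the log2 scale (SE, edgeR adjusted p 2.22e-12) and medium by 1.27 ± 0.06 (SE, edgeR adjusted p 9.68e-13), and it lay below wLwKhShK by -1.04 ± 0.06 (SE, edgeR adjusted p 5.23e-10).

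ENSG00000112972 rose in steps, from 85.0 and 77.2 CPM in medium to 208.0 and 192.3 CPM in the solvent control and 583.3 and 584.5 CPM with diast. Diast exceeded medium by 2.85 ± 0.07 (SE, edgeR adjusted p 1.09e-16) and the solvent control by 1.54 ± 0.07 (SE, edgeR adjusted p 5.81e-12). With wLwKhShK it read 645.4 and 585.1 CPM, and the log2 difference of diast from it was -0.08 with a 95% interval of -0.21 to 0.06 (edgeR adjusted p 0.455). The interval leaves room for a small difference in either direction.

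Of the falls below the solvent control within the same limit, ENSG00000197405 read 14.8 and 17.0 CPM in the solvent control, 2.27 and 2.91 CPM with diast, 1.30 and 1.67 CPM with wLwKhShK and 5.70 and 7.52 CPM in medium. It was above medium in the solvent control and below medium in both peptide groups. The difference of diast from the solvent control was -2.62 ± 0.21 (SE, edgeR adjusted p 2.86e-08), and from medium -1.35 ± 0.22 (SE, edgeR adjusted p 3.42e-05). ENSG00000130487 read 14.03 and 13.1 CPM in medium, 14.4 and 18.2 CPM in the solvent control, 2.73 and 2.68 CPM with diast and 1.02 and 1.81 CPM with wLwKhShK. Diast was lower than the solvent control by -2.58 ± 0.20 (SE, edgeR adjusted p 2.43e-08), whereas the solvent control's own difference from medium was 0.26 with a 95% interval of -0.10 to 0.61 (edgeR adjusted p 0.215).

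**Figure D4:**
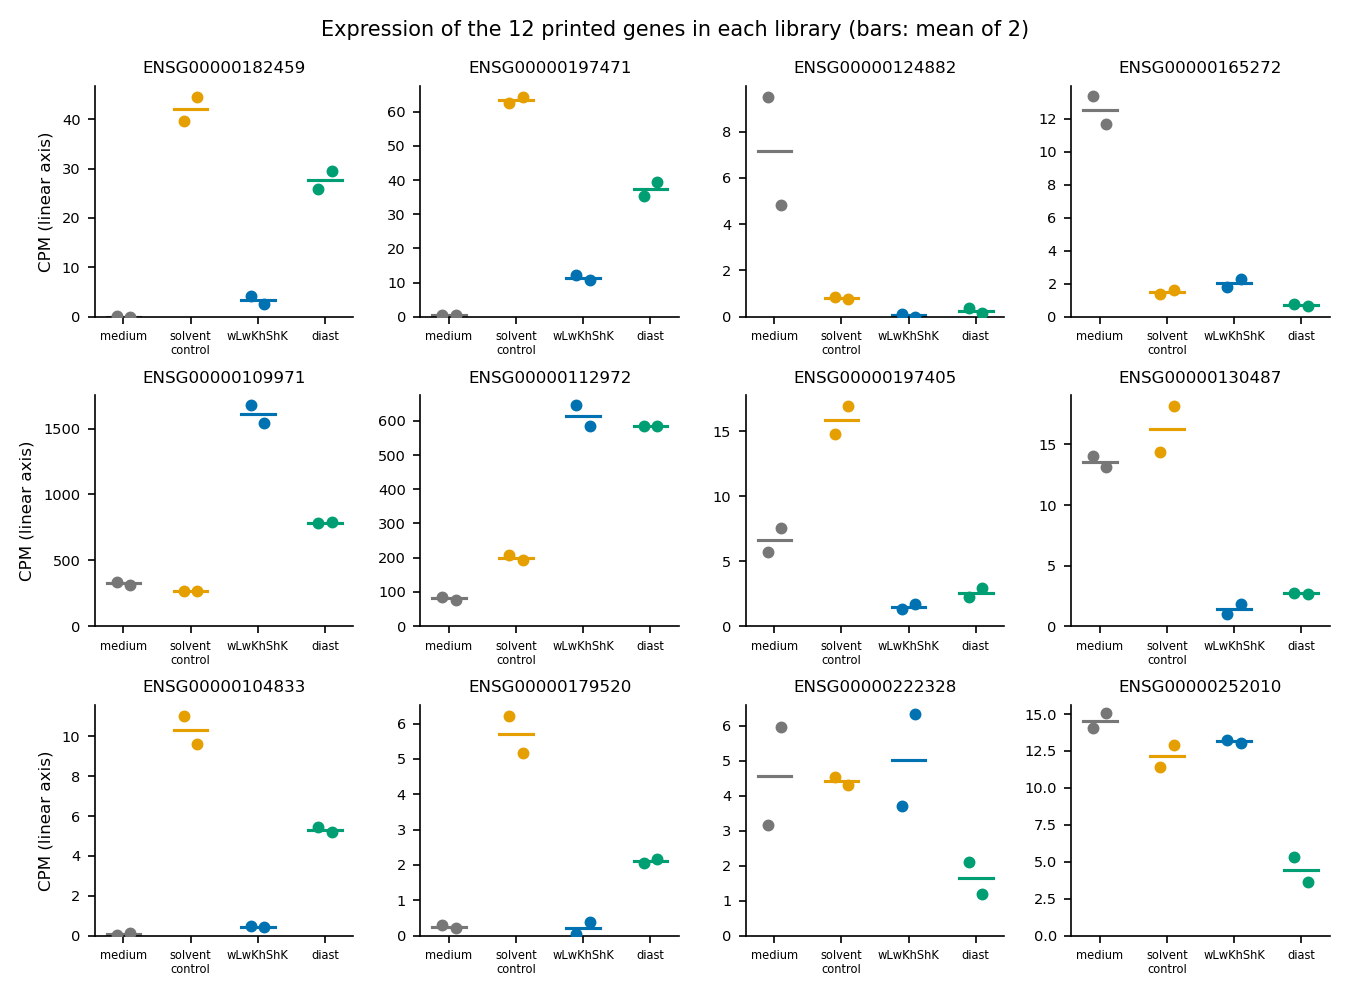
Each panel is 1 printed gene on a linear CPM axis that starts at 0; points are single libraries and short horizontal bars the mean of 2. The top row holds the largest changes from medium among genes with at least 5 CPM in the higher group and no overlap between diast and medium. The middle and bottom rows hold the largest differences from the solvent control and from wLwKhShK. Those were taken among genes called at 2-fold from medium with at least 5 CPM in any of the 4 groups. Diast lies above medium in 6 panels and below it in 6.

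The diastereomers were compared through their communities' metabolites at the same dilution and time. With metabolites of the WlWkHsHK community, 2666 genes differed (17.7%), of which 1380 were higher (9.19%) and 1286 lower (8.56%) compared with those of the wLwKhShK community. At 2-fold or more, 267 were higher (1.78%) and 34 lower (0.226%). The 3 metabolite groups give 3 pairs, and p-values were adjusted over all genes within each pair and not across pairs. The split between higher and lower depended on processing. Upper-quartile factors gave 1628 higher and 1090 lower, and fitting without the expression filter gave 1173 and 1633. Leaving out diast replicate 1, diast replicate 2 or wLwKhShK replicate 1 gave 615, 654 or 594 higher and 528, 650 or 443 lower, and leaving out wLwKhShK replicate 2 gave 1049 and 1186. At 2-fold or more the same 4 fits gave 154, 168, 145 and 244 higher and 16, 31, 17 and 25 lower.

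The genes printed were limited as for the solvent control; outside the limit lie larger fitted differences, with 48 genes called higher and 4 lower than wLwKhShK at 8-fold or more. ENSG00000104833 read 0.05 and 0.11 CPM in medium, 3 counts in all, and 5.46 and 5.19 CPM with diast. With wLwKhShK it stood at 0.47 and 0.43 CPM and in the solvent control at 11.0 and 9.64 CPM. Diast was therefore above medium and wLwKhShK and below the solvent control. The ratio of diast to medium was 68.4 with a 95% counting interval of 23.1 to 334.4, and the log2 difference from wLwKhShK was 3.54 ± 0.31 (SE, edgeR adjusted p 1.53e-07). ENSG00000179520 also lay between the solvent control and wLwKhShK, and reached 5 CPM in the solvent control alone. It read 0.29 and 0.22 CPM in medium, 6.22 and 5.17 CPM in the solvent control, 2.06 and 2.17 CPM with diast and 0.04 and 0.38 CPM with wLwKhShK. Its difference between diast and wLwKhShK was 3.38 ± 0.56 (SE, edgeR adjusted p 0.000362).

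Both genes printed for the opposite direction were low with diast alone. ENSG00000252010 read 14.1 and 15.0 CPM in medium, 11.4 and 12.9 CPM in the solvent control, 13.2 and 13.1 CPM with wLwKhShK and 5.30 and 3.65 CPM with diast. Its difference from wLwKhShK was -1.55 ± 0.17 (SE, edgeR adjusted p 2.73e-06), and from medium -1.69 ± 0.17 (SE, edgeR adjusted p 4.25e-08). ENSG00000222328 read 3.17 and 5.96 CPM in medium, 4.54 and 4.30 CPM in the solvent control, 3.70 and 6.34 CPM with wLwKhShK and 2.11 and 1.198 CPM with diast. Its difference from wLwKhShK was -1.58 ± 0.36 (SE, edgeR adjusted p 0.00601). Without diast replicate 2 the difference of ENSG00000222328 was -1.26 and was not called (edgeR adjusted p 0.0826).

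For genes that differed at least 2-fold between the other 2 metabolite groups, the median place of diast was about midway between them. To see this without choosing genes on a diast difference, genes were taken that were called at least 2-fold apart between wLwKhShK and the solvent control. The diast libraries still entered the expression filter and the shared estimate of spread. Of the genes taken, 126 were higher with wLwKhShK (0.839% of those tested) and 995 lower (6.62%). The diast value fell between the 2 groups for 1071 of these 1121 genes (95.5%), beyond the solvent control for 20 and beyond wLwKhShK for 30. On the log2 scale the median place of diast was 48.1% of the way from the solvent control to wLwKhShK, with quartiles of 32.1% and 62.3%. The median was 46.4% for genes lower with wLwKhShK and 58.4% for genes higher with it. Over the 6125 genes called between wLwKhShK and the solvent control at any size (40.8%), diast lay between them in 83.4%, with a median place of 51.8%. Over all 15023 genes, called or not, diast lay between them in 53.4%. A large difference between the 2 groups leaves more room for a value between them. The share between them therefore depends on how the genes were chosen. Genes are not independent replicates, and each place rests on 2 libraries a group, so these figures are a description.

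**Figure D5:**
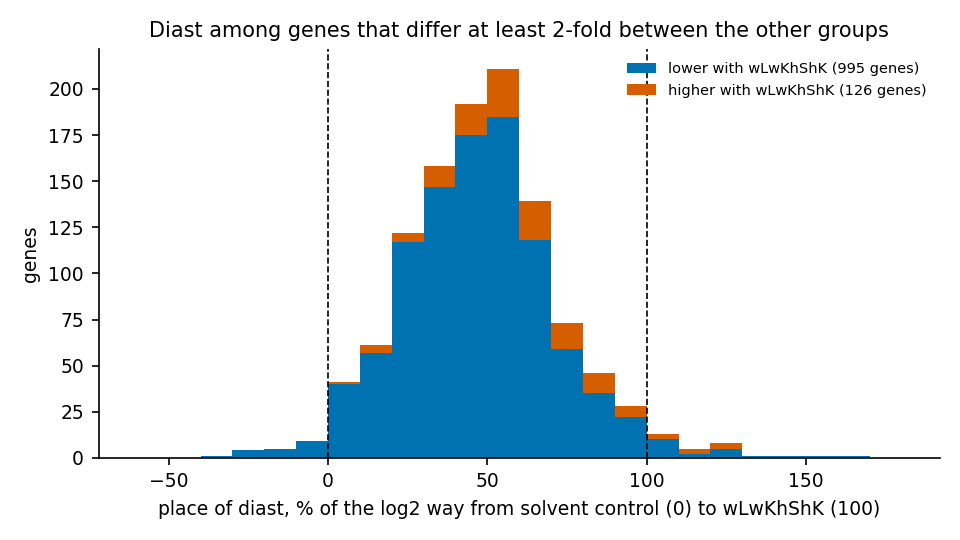
The histogram counts the 1121 genes that differ at least 2-fold between wLwKhShK and the solvent control by the place of diast, as a percentage of the log2 way from the solvent control (0) to wLwKhShK (100); dashed lines mark both ends and 1 gene lies outside the axis. Most genes fall between the lines, around the median of 48.1%.

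Whole-library distances gave the same order. Between a diast and a solvent control library the root mean square log2 difference was 0.42 to 0.44, and between a diast and a wLwKhShK library 0.40 to 0.43. Between a solvent control and a wLwKhShK library it was 0.57 to 0.60. Distances from medium were 0.71 to 0.72 for diast, 0.76 to 0.77 for the solvent control and 0.66 to 0.68 for wLwKhShK, and the ranges did not overlap.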

How the data were processed

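The RNA-seq tables hold expected counts per gene, deposited by the authors without normalization; fastp 0.24.0, STAR 2.5.1b and RSEM 1.2.31 and the build hg38 are named in the submitters' processing notes, and the annotation is not given in the sources used here. Of the values, 8.06% were not whole and were rounded. Rows with Ensembl IDs were kept with the version suffix removed (58230, of which 45 are marked PAR_Y and hold 0 counts); 649 rows with numeric IDs and 97 spike-in rows, which held 0 counts, were left out. Estimated counts share reads between near-identical genes, so a gene with a close copy is less certain.

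All 8 libraries were fitted in 1 model with edgeR 4.0.16 (R 4.3.3): default expression filter, TMM factors, robust quasi-likelihood test, Benjamini-Hochberg adjustment over the 15023 genes of each comparison, threshold 0.05. The SE is the absolute log2 difference divided by the square root of F. DESeq2 1.42.0 was an alternative. CPM values use TMM-scaled library sizes; detection at 1 CPM uses plain totals.

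Genes printed are the first 2 up and 2 down by size, among genes called in the comparison. Against medium they had a mean of at least 5 CPM in the higher of the 2 groups compared and no overlap; for the other comparisons they had a mean of at least 5 CPM in the highest of all 4 groups and were also called at 2-fold against medium. The rule as first written also asked for a gene symbol, and gene lists by symbol were prepared; both were dropped because the files do not pair IDs with names. The comparisons and rules were chosen with earlier results of these data known. The same replicate numbers occur in every group, but deviations of same-numbered libraries correlated at only -0.02 to 0.14, so the numbers were not treated as pairs. Counts from a fit with the numbers as a replicate block are given below. Figures were drawn with matplotlib 3.10.9.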

Additional observations from a re-analysis of the deposited data

Results flagged for a closer look

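For 2 of the printed genes the change from medium ran in opposite directions with diast and with the solvent control. This was rare among all genes called at 2-fold from medium. Of the 1546 rising genes, 1440 (93.1%) were also called higher in the solvent control and 1 was called lower. Of the 579 falling genes, 451 (77.9%) were also called lower there and 4 were called higher. ENSG00000109971 was higher than medium with diast, by 1.27 on the log2 scale, and lower in the solvent control, by -0.29 (edgeR adjusted p 0.00045), and the difference between these changes was 1.56 ± 0.06 (SE, edgeR adjusted p 2.22e-12). ENSG00000197405 was lower than medium with diast, by -1.35, and higher in the solvent control, by 1.27 (edgeR adjusted p 1.01e-05), and the difference was -2.62 ± 0.21 (SE, edgeR adjusted p 2.86e-08). Both genes were printed for the size of this same difference from the solvent control, so its p-value is no separate support. All of these changes are measured from the same medium libraries.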

How the results depend on the processing

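Against medium, the 4 counts of calls stayed within 1.5 times their reported values under all alternatives run (DESeq2 size factors, library size, upper-quartile factors, the DESeq2 test, both other filters, the groups compared alone, non-robust dispersion, the replicate block and each library left out). Leaving out a library, which leaves a lone library assumed to vary like the other groups, gave 3314 to 3618 higher and 3259 to 3866 lower, and at 2-fold or more 1323 to 1419 and 554 to 620. With the replicate block 4397 were higher and 3830 lower against medium. The block gave 1913 higher and 1793 lower against the solvent control, and 1679 and 1725 against wLwKhShK. All of these exceed the reported counts, and the block moved no count past 1.5 times. Against the solvent control, genes higher at 2-fold or more numbered 68 with the groups compared alone and 25 by DESeq2; leaving out a library gave 827 to 890 higher, 885 to 1080 lower, 32 to 48 higher at 2-fold and 111 to 135 lower at 2-fold. Against wLwKhShK, 22 were lower at 2-fold by DESeq2; leaving out a library gave 594 to 1049 higher, 443 to 1186 lower, 145 to 244 higher at 2-fold and 16 to 31 lower at 2-fold. Why these counts moved was not tested. The median place of diast ranged from 42.5% to 50.6% of the way when a library was left out. Of 260 values of printed genes over 17 alternatives, 259 kept their direction and call; the exception is ENSG00000222328 without diast replicate 2. Promoter motifs were not run, since no human promoter sequences were used here. Below about 2 CPM, changes under 2-fold could not be called at this depth.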
